A study of Mus musculus with 12 samples.

Results

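The Wnt ligands, their receptors and the proteins that modulate them were examined as 55 genes in RNA sequencing of mouse lung tumors and normal mouse lung. The genes were listed by symbol, with earlier results of these data known but with no threshold on a measured value, and all 55 were found among the 30399 genes of the table through their Ensembl identifiers. They comprise 18 Wnt ligands, 12 receptors and coreceptors, 9 secreted inhibitors, 9 genes of the R-spondin axis, and 7 nuclear factors or feedback genes.

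The study generated lung cancer in mice by mutagenesis with CRISPR/Cas9 delivered without a virus. Poly-A RNA was sequenced from 5 samples of normal lung and 7 tumors. The labels give each sample's tissue and nothing on the genes mutated, the strain, the age, the sex or any further treatment of either group, so neither group can be described beyond its tissue. The tumor titles carry a number that tumors 3 and 4 share and that tumors 5, 6 and 7 share, giving 4 distinct numbers over the 7 tumors. The titles of tumors 1 and 7 hold the Spanish word for trachea. The labels do not say whether samples of a group came from separate animals. The main test treated the samples as independent and set group differences against the spread between these samples. Its p-values can be too small if same-numbered tumors are related.

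Wnt proteins are lipid-modified signals that leave a cell with the help of the membrane protein Wls and bind frizzled receptors together with Lrp5 or Lrp6. Binding halts the destruction of beta-catenin, which then joins TCF/LEF factors in the nucleus and switches on target genes, several of which feed back on the pathway. In the lung the pathway is known for specifying the organ in the embryo and for maintaining and repairing the alveolar epithelium in the adult, and some ligands act without beta-catenin on cell polarity and movement.

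Values are read counts that the authors divided by a size factor for each sample, called normalized counts below. The libraries held 11126432 to 17032234 assigned reads for normal lung and 13093843 to 24217633 for tumors, and 3 reads correspond to at most 4.85 normalized counts for normal lung and 3.57 for tumors. Values at or under these floors rest on few reads, and the floors cover counting error only. The labelled tissues were set against cell type markers. Summed over 6 markers, alveolar type 2 cells gave 191197 to 260269 normalized counts in normal lung and 739 to 3153 in tumors, and summed over 7 neuroendocrine markers the values were 171 to 203 in normal lung and 26603 to 109256 in tumors. Tumor 7 stood apart from the other tumors: its summed markers of fibroblasts, smooth muscle, T cells, other leukocytes and cardiac muscle were the highest of the 7 tumors, and its summed neuroendocrine markers were the lowest.

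Most of the Wnt genes that changed were lower in tumors. Of the 55 genes, 54 reached a mean of at least 1 normalized count and were tested with limma on log2(normalized count + 1), with Benjamini-Hochberg adjustment over all 23674 genes tested. At an adjusted p under 0.05, 32 members were lower in tumors (59.3%) and 11 were higher (20.4%), while 30.1% of all genes tested were lower and 31.4% were higher. The median log2 fold change, tumor against normal lung, was -1.57 over the 54 members and 0.04 over all genes tested. In 24 members every tumor lay below every normal lung (44.4% of those tested, against 18.4% of all genes), and in 8 every tumor lay above (14.8%, against 20.1%). In 9 members (Wnt7b, Fzd5, Fzd6, Sfrp2, Rspo1, Rspo3, Lef1, Tcf7 and Notum) the counts are uncertain, since each overlaps an annotated gene on the opposite strand and the counting is not stated to use strand. With an absolute log2 fold change of at least 1 required too, 29 members were lower (53.7%, against 24.5% of all genes) and 10 higher (18.5%, against 24.0%). The gene left untested was Wnt1, which reached 2.56 normalized counts at most. In bulk tissue, fewer cells of a type and less RNA per cell cannot be told apart.

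**Figure D1:**
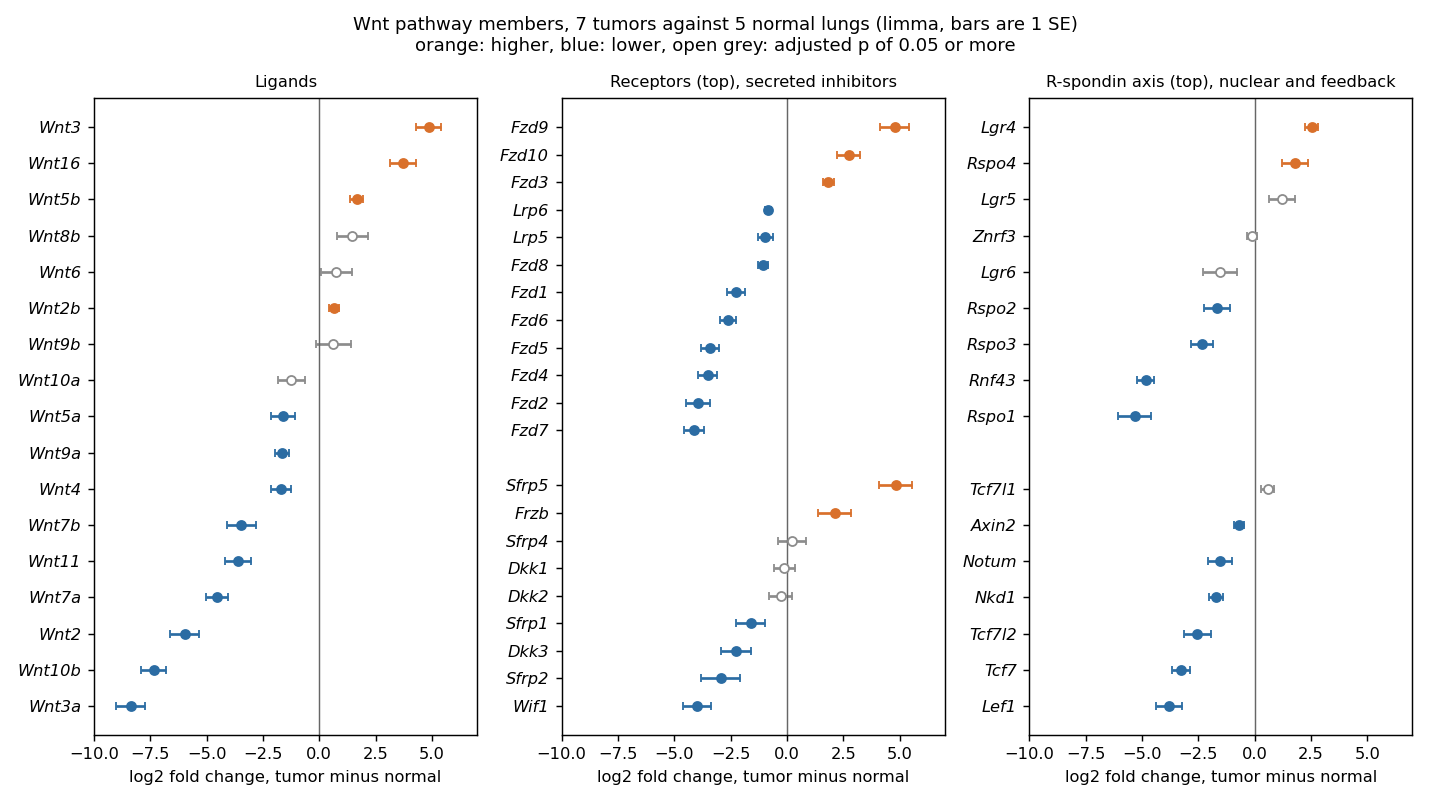
Log2 fold change of the 54 tested Wnt genes, 7 tumors against 5 normal lungs, by role (x axis, difference on the log2(normalized count + 1) scale, bars are 1 standard error from limma). Orange points passed the test as higher and blue points as lower, open grey points did not pass, and the 32 blue points outnumber the 11 orange ones.

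The plot of fold changes by role shows lower genes in every role. Of all genes tested, 30.1% were lower and 31.4% higher. Among the receptors 9 of 12 were lower (75.0%) and 3 were higher (25.0%), with a median log2 fold change of -1.66. Among the ligands 9 of 17 tested were lower (52.9%) and 4 higher (23.5%), with a median of -1.59. The nuclear factors and feedback genes had 6 of 7 lower (85.7%) and none higher. The R-spondin axis had 4 of 9 lower (44.4%) and 2 higher (22.2%). The secreted inhibitors also had 4 of 9 lower (44.4%) and 2 higher (22.2%), with a median of -0.28. The roles hold few genes, and their difference from all genes was not tested.

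Promoters of members are shown here because the members include both the TCF/LEF factors and genes that these factors can regulate. RefSeq promoter sequences (build GRCm38.p6) matched 38 of the 55 members by symbol, and the 250 bases before each listed start were searched for the core TCF/LEF motif CTTTGA on both strands (TCAAAG when read on the other strand; the motif cannot overlap its reverse complement in the same bases). At least 1 match was found for 6 of the 38 members (15.8%), namely Dkk1, Frzb, Fzd1, Lef1, Wnt11 and Wnt5b, and for 4280 of the 27025 genes of the promoter table (15.8%). The motif was thus as common before member genes as before genes in general. Matches occurred in 3 of 20 matched members that fell and 2 of 10 that rose. The sequences of 3 genes that fell and 1 that rose are printed 5′ to 3′ on the strand of the gene, with the motif in capitals. They lie at chr3:131156044-131156293 on the plus strand for Lef1 (the start farthest downstream of those listed for the gene, with matches beginning 180 and 120 bases before it), chr7:98834862-98835111 on the plus strand for Wnt11 (50 bases before the start), chr5:4758217-4758466 on the minus strand for Fzd1 (242 bases before) and chr6:119449387-119449636 on the minus strand for Wnt5b (71 bases before).
Lef1: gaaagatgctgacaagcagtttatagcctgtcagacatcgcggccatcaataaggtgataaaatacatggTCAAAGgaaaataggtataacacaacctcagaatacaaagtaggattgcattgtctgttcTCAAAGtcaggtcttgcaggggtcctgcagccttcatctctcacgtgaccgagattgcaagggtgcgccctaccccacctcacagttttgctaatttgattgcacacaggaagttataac
Wnt11: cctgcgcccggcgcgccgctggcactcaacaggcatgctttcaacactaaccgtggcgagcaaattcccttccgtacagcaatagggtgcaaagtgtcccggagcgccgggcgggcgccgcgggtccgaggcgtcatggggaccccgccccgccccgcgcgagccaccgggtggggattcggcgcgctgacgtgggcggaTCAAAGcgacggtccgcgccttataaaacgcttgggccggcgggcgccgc
Fzd1: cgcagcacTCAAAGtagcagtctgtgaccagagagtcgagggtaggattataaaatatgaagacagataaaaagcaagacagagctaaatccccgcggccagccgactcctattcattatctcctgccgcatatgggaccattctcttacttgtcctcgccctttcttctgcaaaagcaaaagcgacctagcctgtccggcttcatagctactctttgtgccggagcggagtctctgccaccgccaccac
Wnt5b: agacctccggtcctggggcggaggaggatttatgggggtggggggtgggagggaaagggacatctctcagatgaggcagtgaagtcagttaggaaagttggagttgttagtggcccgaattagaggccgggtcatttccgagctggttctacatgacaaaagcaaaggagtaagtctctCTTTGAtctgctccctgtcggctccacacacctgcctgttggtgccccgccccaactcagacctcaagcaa
A match is a description of these letters and not of binding. Other listed starts of Lef1, Wnt11 and Wnt5b held no match in their 250 bases.

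The ligands most abundant per length in normal lung were far lower in the tumors. Wnt3a (ENSMUSG00000009900), a ligand that acts through beta-catenin, had 778, 678, 438, 796 and 837 normalized counts across normal lungs 1 to 5 in that order, and its tumors ran from 0 through a median of 0 to 11.3. The groups did not overlap, and in 5 of 7 tumors Wnt3a rested on 3 reads or fewer. Wnt3a fell by 8.36 on the log2 scale (SE 0.65, limma adjusted p = 1.5e-07). Wnt10b, known for holding back fat cell formation, had 723, 970, 598, 869 and 807 normalized counts in normal lung and 0 at the lowest, 4.04 at the median and 19.2 at the highest in tumors. All tumors lay far below all normal lungs, with tumor 7 highest and tumor 3 at 0, and Wnt10b fell by 7.35 (SE 0.56, limma adjusted p = 1.34e-07).

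Wnt2, a mesenchymal ligand needed with Wnt2b for the embryonic lung to form, had 293, 624, 278, 545 and 462 normalized counts in normal lung, and its tumors ran from 0 through 8.23 to 26.3. Tumor 7 was highest without reaching any normal lung, 2 tumors held 3 reads or fewer, and Wnt2 fell by 5.98 on the log2 scale (SE 0.65, limma adjusted p = 4.03e-06). Wnt7a had 564, 724, 410, 992 and 630 normalized counts in normal lung and 4.77, 34.4 and 58.2 as the lowest, median and highest tumor. It fell by 4.53 (SE 0.47, limma adjusted p = 2.63e-06), with tumor 2 lying well under the other tumors. Wnt7b, an epithelial ligand that drives growth of the developing lung, had 214, 144.1, 118, 175 and 187.4 normalized counts in normal lung, and its tumors ran from 1.98 through 23.4 to 38.6. The groups did not overlap, and Wnt7b fell by 3.46 (SE 0.63, limma adjusted p = 0.000351). Wnt11, which acts largely without beta-catenin, had 589, 553, 397, 440 and 453 normalized counts in normal lung against 10.9, 51.3 and 188 for the lowest, median and highest tumor. Tumor 7 stood above the other tumors, all tumors stayed below all normal lungs, and Wnt11 fell by 3.61 (SE 0.57, limma adjusted p = 0.000102).

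**Figure D2:**
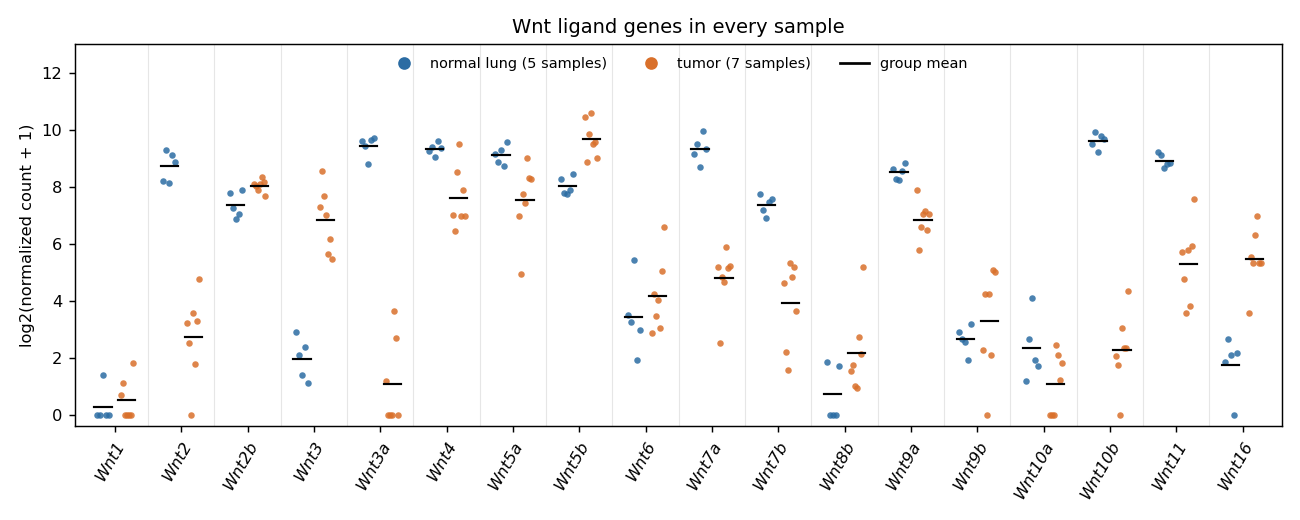
Level of the 18 Wnt ligand genes in every sample (y axis, log2(normalized count + 1); blue points, 5 normal lungs; orange points, 7 tumors; black bars, group means). Wnt3a, Wnt10b, Wnt2 and Wnt7a separate downward, while Wnt3, Wnt16 and Wnt5b separate upward.

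Wnt3 moved the opposite way. This beta-catenin ligand had 6.45, 3.23, 1.62, 4.23 and 1.15 normalized counts in normal lung, where 3 samples held 3 reads or fewer, and its tumors ran from 42.9 through 128 to 376. Every tumor exceeded every normal lung, tumor 2 was highest and tumor 7 lowest, and Wnt3 rose by 4.86 (SE 0.55, limma adjusted p = 5.81e-06). Wnt5b and Wnt16 also lay above normal lung in all tumors: Wnt5b, mostly known for signalling without beta-catenin, ran from 212 to 351 normalized counts in normal lung, against 461 to 1546 in tumors (log2 fold change 1.66), and Wnt16 from 0 to 5.38, with 4 of 5 normal lungs at 3 reads or fewer, and from 10.8 to 124 (3.72). Wnt2b passed the test with overlapping groups, at 115 to 235 in normal lung and 200 to 325 in tumors (0.67, limma adjusted p = 0.0156).

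The other ligands changed less or did not pass. Wnt9a lay below normal lung in all tumors (log2 fold change -1.67). Wnt4 (-1.71) and Wnt5a (-1.59) passed with overlapping groups, and Wnt4 in tumor 4 reached 723 normalized counts against 520 to 782 in normal lung. The call of Wnt5a ended with edgeR on the 11 samples whose reads could be recovered (-1.14, adjusted p = 0.0718). Wnt6, Wnt8b, Wnt9b and Wnt10a did not pass, and apart from Wnt6 in tumor 7 (94.8) and normal lung 3 (42.0) their values stayed at or under 35.2 normalized counts. Among these 4, Wnt10a passed with quantile normalization, with same-numbered tumors averaged and with the level of Y-linked genes as a term of the fit, called the Y-linked covariate from here on (-1.46 to -2.30), Wnt8b passed with a pseudocount of 0.1 (3.16) and Wnt9b passed with DESeq2 on the 11 samples (1.71).

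The makeup of the ligand pool also differed between the groups. Levels of different genes were compared per kilobase of exon. On that scale the summed ligand level averaged 1534 ± 237 (SD, n = 5) in normal lung and 643 ± 188 (SD, n = 7) in tumors. Normal lung spread its ligand total over several genes, with mean shares of 16.5% for Wnt3a, 15.2% for Wnt10b, 13.4% for Wnt7a and 12.5% for Wnt2. Wnt4 held 10.1%, Wnt11 7.76%, Wnt9a 7.28% and Wnt5b 6.54%. In tumors Wnt5b made up 50.6% ± 9.998 (SD, n = 7), with a range of 37.5% to 65.6%, and ranked first in 7 of 7. Wnt2b followed at 10.3% and Wnt4 at 8.6% (range 3.81% to 17.5%). Wnt3 reached 28.3% in tumor 2 and 2.74% to 10.4% in the other tumors. Wnt3a, Wnt10b and Wnt2 each averaged under 1% of the tumor total, at 0.16%, 0.29% and 0.66%.

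**Figure D3:**
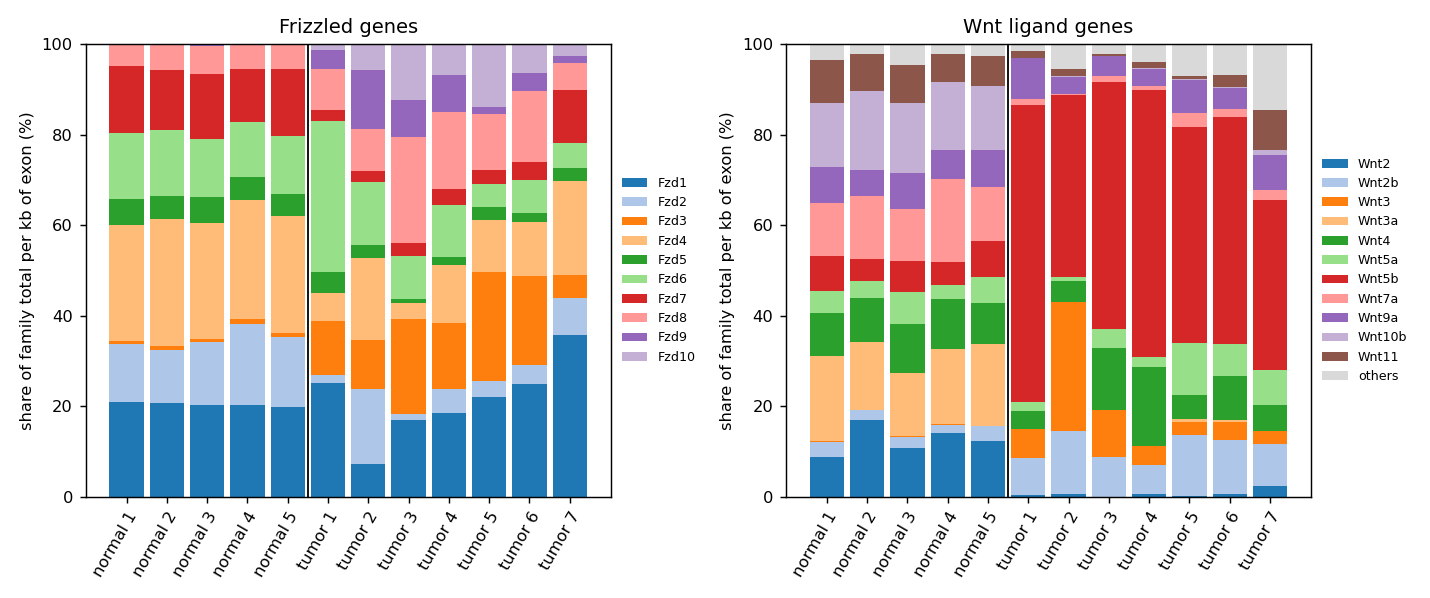
Share of the summed frizzled level (left) and of the summed Wnt ligand level (right) held by each gene in every sample (y axis, percent of the family total per kilobase of exon; x axis, 5 normal lungs then 7 tumors). Fzd4 is first in 5 of 5 normal lungs but in 1 tumor, and Wnt5b is first in 7 of 7 tumors.

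The receptors split in the same way, with the frizzleds abundant in normal lung lower in tumors and the scarce ones higher. Fzd4 (ENSMUSG00000049791), which also serves norrin and is known for its part in blood vessel growth, had 4146, 4444, 3899, 4177 and 4502 normalized counts in normal lung, and its tumors ran from 111 through 375 to 1214. All tumors lay below all normal lungs, tumor 3 lowest and tumor 7 highest, and Fzd4 fell by 3.52 (SE 0.42, limma adjusted p = 9.9e-06). Fzd7 had 1643, 1430, 1476, 1253 and 1732 normalized counts in normal lung and 47.7, 67.9 and 462 as the lowest, median and highest tumor. Apart from tumor 7 the highest Fzd7 value in a tumor was 95.02, and Fzd7 fell by 4.11 (SE 0.45, limma adjusted p = 4.53e-06). Fzd2 had 1126, 1022, 1150, 1533 and 1465 normalized counts in normal lung, and its tumors ran from 22.8 through 78.2 to 257. Its groups did not overlap, and Fzd2 fell by 3.95 (SE 0.53, limma adjusted p = 2.84e-05).

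Fzd1 had 2136, 2055, 1911, 2005 and 2156 normalized counts in normal lung and 130, 455 and 1298 as the lowest, median and highest tumor. Tumor 2 was lowest and tumor 7 highest, all below normal lung, and Fzd1 fell by 2.26 (SE 0.41, limma adjusted p = 0.000312). Fzd5 had 996, 838, 895, 817 and 855 normalized counts in normal lung, and its tumors ran from 25.8 through 84.6 to 174. Here tumor 1, not tumor 7, was the highest tumor, and Fzd5 fell by 3.40 (SE 0.40, limma adjusted p = 7.52e-06). Fzd6, known from hair patterning and planar polarity, had 1686, 1669, 1371, 1364 and 1601 normalized counts in normal lung and 120, 226 and 875 as the lowest, median and highest tumor. Tumor 1 was again the highest, below all normal lungs, and Fzd6 fell by 2.61 (SE 0.36, limma adjusted p = 3.69e-05).

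Fzd8, with 660 to 845 normalized counts in normal lung and 235 to 636 in tumors, lay below normal lung in all tumors (log2 fold change -1.05). The coreceptors moved least among the receptors. Lrp6 had 2275 to 2553 normalized counts in normal lung and 1011 to 1648 in tumors (-0.84, groups apart), and Lrp5 had 1373 to 3112 and 370 to 1583 (-0.96, groups overlapping, limma adjusted p = 0.0192). The Lrp5 call ended without normal lung 5 (-0.80, adjusted p = 0.057), with edgeR (-0.80), with samples scaled to the same total (-0.75) and with the Y-linked covariate (-0.74).

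Fzd10, Fzd9 and Fzd3 rose, each with all tumors above all normal lungs. Fzd10 had 16.8, 9.68, 19.4, 7.05 and 16.1 normalized counts in normal lung, and its tumors ran from 22.2 through 92.5 to 221. The lowest tumor, tumor 1, lay close above the highest normal lung, and Fzd10 rose by 2.73 (SE 0.50, limma adjusted p = 0.000362), or by 1.76 with the Y-linked covariate. Fzd9 was at 0 to 8.08 normalized counts in normal lung, with 4 of 5 samples at 3 reads or fewer, and at 17.0 to 126 in tumors (log2 fold change 4.77). Fzd3, a receptor known from axon guidance, ran from 224 to 295 in normal lung, against 564 to 1509 in tumors (1.84).

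**Figure D4:**
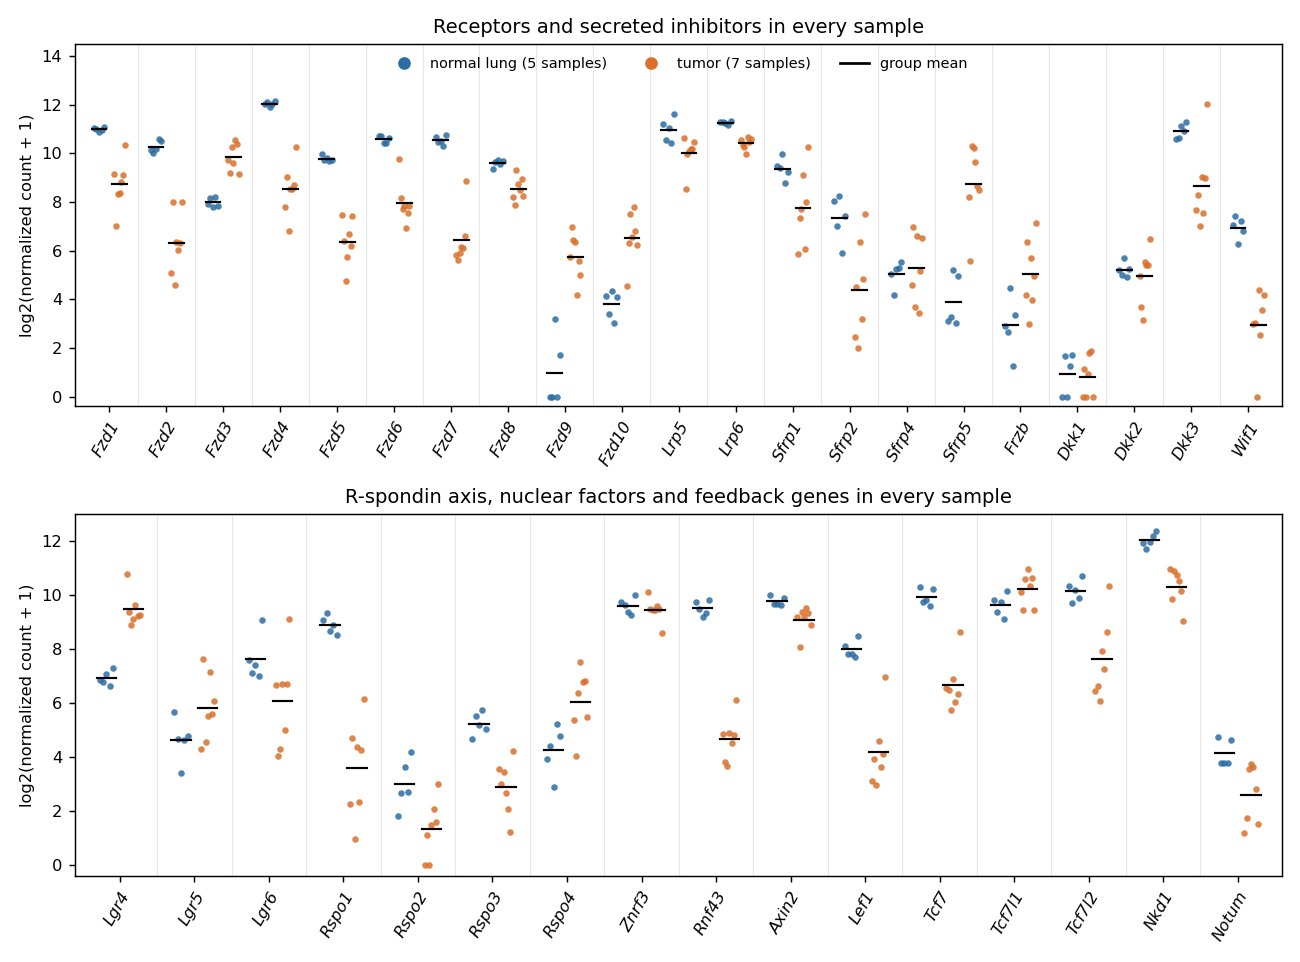
Levels of receptors and secreted inhibitors (top) and of the R-spondin axis, nuclear factors and feedback genes (bottom) in every sample (y axis, log2(normalized count + 1); blue points, 5 normal lungs; orange points, 7 tumors; black bars, group means). Fzd4, Fzd7, Rnf43 and Rspo1 lie lower in all tumors, and Fzd3, Fzd9, Sfrp5 and Lgr4 lie higher in all tumors.

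Per kilobase of exon, the summed frizzled level was 2397 ± 121 (SD, n = 5) in normal lung and 532 ± 154 (SD, n = 7) in tumors. The plot of family shares shows that Fzd4 held 26.3% ± 0.97 (SD, n = 5) of this total in normal lung, ahead of Fzd1 at 20.4% ± 0.43, and 12.2% ± 6.09 (SD, n = 7) in tumors. Fzd3 went from 0.84% to a mean of 15.3% in tumors, Fzd10 from 0.18% to 7.02% and Fzd9 from 0.039% to 5.82%. No frizzled led in all tumors: Fzd1 was first in 3, and Fzd3, Fzd4, Fzd6 and Fzd8 in 1 each. In normal lung Fzd4 was first in 5 of 5, with Fzd1 next in each, while the order of Fzd2, Fzd6 and Fzd7 behind them varied from lung to lung.

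The secreted inhibitors went in both directions. Wif1, which binds Wnt ligands outside the cell, had 133, 170, 75.9, 147 and 110 normalized counts in normal lung, and its tumors ran from 0 through 7.15 to 19.8. The groups did not overlap, tumor 3 was listed at 0, and Wif1 fell by 3.99 (SE 0.63, limma adjusted p = 0.000112). Sfrp5, a secreted frizzled-related protein that takes up Wnt ligands, had 7.74, 8.60, 35.5, 7.05 and 29.9 normalized counts in normal lung and 46.5, 402 and 1260 as the lowest, median and highest tumor. All tumors lay above all normal lungs, with tumor 2 lowest and close to normal lungs 3 and 5, and Sfrp5 rose by 4.82 (SE 0.74, limma adjusted p = 8.25e-05). Per kilobase of exon Sfrp5 held 3.40% of the summed level of the 5 genes of its family in normal lung and 66.9% ± 30.1 (SD, n = 7) in tumors, being first in 5 tumors, while Sfrp1 held 61.3% and 18.1%.

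Frzb, of the same family, had 1.41 to 20.996 normalized counts in normal lung and 6.94 to 140 in tumors and passed the test (log2 fold change 2.11, limma adjusted p = 0.0209). Its call ended without normal lung 4 (1.70, adjusted p = 0.0645) and with the Y-linked covariate (1.18). Sfrp2 (-2.93, limma adjusted p = 0.00996), Dkk3 (-2.26, limma adjusted p = 0.00922) and Sfrp1 (-1.60, limma adjusted p = 0.0423) passed as lower with overlapping groups. With edgeR on 11 samples these 3 calls ended, at -1.67, -0.88 and -0.72, and the call of Sfrp1 also ended with DESeq2 (-0.81), without a variance trend, with correlated same-numbered tumors, with equal totals, and in 9 of the 12 fits that left out 1 sample (-1.29 to -1.64 in those 9, without normal lung 1, 2, 3 or 5 or tumor 1, 2, 3, 5 or 6). Sfrp4, Dkk1 and Dkk2 did not pass, and Dkk1, an inhibitor that binds Lrp5 and Lrp6, had at most 2.70 normalized counts in any sample.

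In the R-spondin axis the opposing parts changed unequally. R-spondins bind Lgr receptors and clear away Rnf43 and Znrf3, ubiquitin ligases that remove frizzled receptors from the cell surface. Rnf43 (ENSMUSG00000034177) had 858, 712, 588, 647 and 906 normalized counts in normal lung, and its tumors ran from 11.9 through 27.6 to 68.5. All tumors were far below all normal lungs, tumor 3 lowest and tumor 7 highest, and Rnf43 fell by 4.84 (SE 0.37, limma adjusted p = 1.25e-07). Its partner Znrf3 had 845, 781, 657, 611 and 1014 normalized counts in normal lung and 388, 705 and 1102 as the lowest, median and highest tumor. The groups overlapped and Znrf3 did not pass (log2 fold change -0.14, SE 0.22, limma adjusted p = 0.602), with a sign that turned under some scalings and sample choices.

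Lgr4 had 115, 109, 136, 98.7 and 157 normalized counts in normal lung, and its tumors ran from 476 through 617 to 1756. Every tumor exceeded every normal lung, tumor 1 stood above the rest, and Lgr4 rose by 2.53 (SE 0.28, limma adjusted p = 5.18e-06). Lgr5, a target gene and stem cell marker in several epithelia, had 50.3, 24.7, 9.69, 24.0 and 26.4 normalized counts in normal lung and 18.99, 47.8 and 195 as the lowest, median and highest tumor. The groups overlapped and its difference of 1.197 on the log2 scale did not pass (SE 0.58, limma adjusted p = 0.0901). Lgr5 passed with edgeR (1.73), with DESeq2 (1.68), without the tumors titled for the trachea (1.45) and without tumor 1 (1.45, adjusted p = 0.0385). Lgr6 did not pass (-1.56, limma adjusted p = 0.0891) but passed without tumor 7 (-2.06, adjusted p = 0.00766), the tumor in which it reached 551 normalized counts. It also passed with same-numbered tumors averaged (-1.85), without the trachea-titled tumors (-2.28) and without tumors 3 and 7 (-1.81).

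Rspo1, one of the 4 secreted R-spondins, had 544, 650, 409, 470 and 363 normalized counts in normal lung, and its tumors ran from 0.99 through 18.2 to 70.4. The groups did not overlap, and Rspo1 fell by 5.32 (SE 0.73, limma adjusted p = 3.18e-05). Rspo3 also lay below normal lung in all tumors, at 24.5 to 52.2 normalized counts against 1.35 to 17.9 (log2 fold change -2.34). Rspo2 was scarce in both groups, at 2.58 to 17.2 and 0 to 7.04 (-1.68, limma adjusted p = 0.0201), and its call ended with DESeq2 (-1.68, adjusted p = 0.0635) and without normal lung 3 (-1.53) or normal lung 5 (-1.39). Rspo4 rose, with a range of 6.46 to 36.7 in normal lung and 15.5 to 181 in tumors (1.80, limma adjusted p = 0.0154), a call that ended with same-numbered tumors averaged (1.43, adjusted p = 0.0772).

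Nuclear factors and feedback genes were lower in tumors with 1 exception. Lef1, which carries beta-catenin's signal to DNA and is itself a target gene, had 276, 224, 223, 210 and 359 normalized counts in normal lung, and its tumors ran from 6.94 through 14.3 to 124. Tumor 7 was far above the other tumors yet below all normal lungs, and Lef1 fell by 3.80 (SE 0.57, limma adjusted p = 7.08e-05). Tcf7, a related factor prominent in T cells, had 1245, 844, 890, 773 and 1200 normalized counts in normal lung and 52.5, 88.2 and 391 as the lowest, median and highest tumor. Tumor 7 was again the highest without reaching normal lung, and Tcf7 fell by 3.26 (SE 0.40, limma adjusted p = 1.16e-05). T cells are a known source of both transcripts, and 6 of 7 T cell markers fell. The sum of the 7 was 1197 to 2565 normalized counts in normal lung, 54.5 to 734 in tumors 1 to 6 and 3135 in tumor 7. Cd8a, which did not pass, gave 1284 of the sum in tumor 7, against 185 to 411 in normal lung. Il7r (884, against 379 to 834) also lay above normal lung in tumor 7. There Cd3d, Cd3e, Cd3g and Cd4 lay within the range of normal lung, and Cd28 (102, against 115 to 257) lay below it. The part of T cells in the fall of Lef1 and Tcf7 was not tested.

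Tcf7l2 passed as lower with overlapping groups (830 to 1673 normalized counts against 67.4 to 1296, log2 fold change -2.54, limma adjusted p = 0.00252), and its call ended with edgeR (-1.53, adjusted p = 0.0565). Tcf7l1, the family member best known as a repressor, did not pass (559 to 1134 against 696 to 1978, 0.57, limma adjusted p = 0.089). It passed without tumor 2 (0.70), without tumor 7 (0.70), without the trachea-titled tumors (0.74) and with equal totals (0.78). Per kilobase of exon the 4 TCF/LEF genes summed to 750 ± 175 (SD, n = 5) in normal lung and 412 (range 224 to 579, n = 7) in tumors. Tcf7 was first in normal lung with 50.5% ± 3.29 (SD, n = 5), and Tcf7l1 was first in 7 of 7 tumors with a median share of 85.9%. In tumor 7 that share was 36.4%.

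Axin2, Nkd1 and Notum fell by less than Lef1 and Tcf7. Axin2, a scaffold of the destruction complex widely used as a readout of beta-catenin activity, had 1019, 805, 814, 798 and 948 normalized counts in normal lung, and its tumors ran from 269 through 581 to 730. All tumors lay below all normal lungs, tumor 2 stood under the rest, and Axin2 fell by 0.69 (SE 0.22, limma adjusted p = 0.0151). This call ended with samples scaled to the same total (-0.49, adjusted p = 0.0684) and with the Y-linked covariate (-0.60, adjusted p = 0.116). Nkd1, which binds dishevelled and dampens the signal, had 3844, 3302, 4001, 4583 and 5277 normalized counts in normal lung and 519, 1450 and 1995 as the lowest, median and highest tumor. Its groups did not overlap, tumor 7 was lowest, and Nkd1 fell by 1.72 (SE 0.29, limma adjusted p = 0.000211). Notum, an enzyme that strips the lipid from Wnt proteins, had 25.8, 12.9, 12.9, 12.7 and 24.1 normalized counts in normal lung, and its tumors ran from 1.27 through 6.06 to 12.6. The highest tumor touched the lowest normal lung to within 1 read, and Notum fell by 1.54 (SE 0.52, limma adjusted p = 0.0204). Without normal lung 1 (-1.40, adjusted p = 0.0533), without normal lung 5 (-1.42, adjusted p = 0.0503) or without the trachea-titled tumors (-1.05) the call of Notum ended.

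Tumors differed among themselves more in some members than in others. The 6 members most variable across tumors were Sfrp1, Sfrp2, Sfrp5, Dkk3, Lgr6 and Rspo1. Dkk3 ran from 129 normalized counts in tumor 3 to 515 in the second highest tumor and 4152 in tumor 7, against 1555 to 2511 in normal lung. Sfrp1 ran from 57.6 in tumor 1 to 1227 in tumor 7, against 434 to 999.7, and Sfrp2 from 2.97 in tumor 3 to 181 in tumor 7, against 59.2 to 300.4. Of these 6 genes, tumor 7 held the highest tumor value in all but Sfrp5, whose highest value was in tumor 3.

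**Figure D5:**
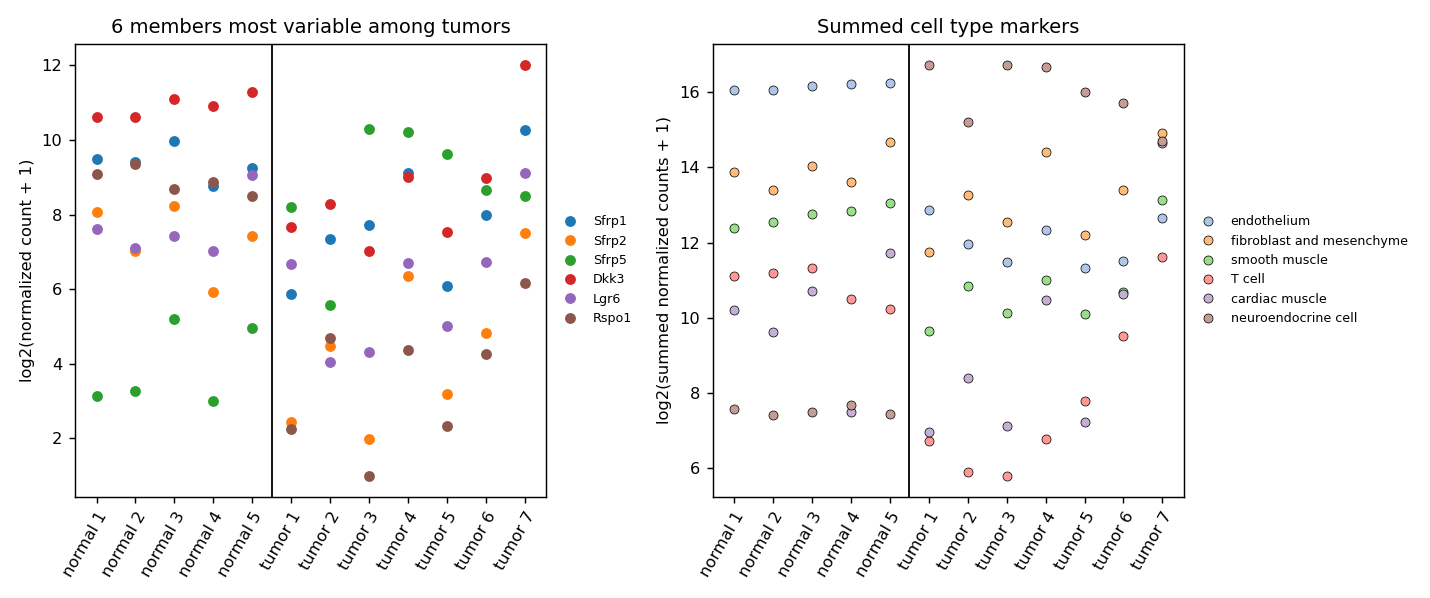
Level of the 6 members most variable among tumors (left, y axis log2(normalized count + 1)) and summed markers of 6 cell types (right, y axis log2(summed normalized counts + 1)) in 5 normal lungs and 7 tumors, 1 point per sample. In tumor 7, Dkk3 reaches 4152 normalized counts and the summed cardiac muscle markers reach 25648.

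Over all members, 49 had a median over the tumors above 3.57 normalized counts, the 3-read floor of the shallowest tumor. Among these 49, tumor 7 was the highest tumor in 20 and tumor 3 the lowest in 19, and of the 30 members in this set that were lower than in normal lung, tumor 7 was highest in 16 and tumor 3 lowest in 15. In 9 of the 49 a tumor held 3 reads or fewer, and there the lowest tumor is uncertain; in the 40 with every tumor over 3 reads, tumor 3 was lowest in 12. Summed markers of T cells, of other leukocytes and of neurons with Schwann cells were also highest in tumor 7 and lowest in tumor 3. Over the tumors these sums ran from 54.5 to 3135, from 256 to 8611 and from 62.5 to 234 normalized counts. Summed markers of fibroblasts, smooth muscle and cardiac muscle were highest in tumor 7 too, but lowest in tumor 1. Single markers differed at the low end. Tumor 1 was lowest in Des alone of the smooth muscle markers and in no cardiac muscle marker. Of the fibroblast markers it was lowest in Pdgfra, Col1a1 and Col1a2, and tumor 3 was lowest in Pdgfrb, Col3a1, Dcn and Lum. Summed fibroblast markers were 10901 to 26218 normalized counts in normal lung, 3445 to 21819 in tumors 1 to 6 and 31188 in tumor 7. Smooth muscle markers were 5397 to 8475, 804 to 2048 and 9027 in the same order, and cardiac muscle markers 179 to 3397, 123 to 1584 and 25648. Endothelial markers, of which 8 of 8 fell, were 67831 to 78438 in normal lung and 2568 to 7453 in tumors. Their sum was highest in tumor 1, where Vwf alone gave 6522, and lowest in tumor 5. Taken singly, Pecam1, Cdh5, Kdr, Tek, Cldn5, Egfl7 and Tie1 were each highest in tumor 7 and lowest in tumor 1 or tumor 3. No marker of these lists was at 0 in every tumor, and the part of these cells in the levels of the Wnt genes was not tested. Without tumor 7, 33 of 54 members were lower and 12 higher, while of all 23674 genes tested 7570 were lower and 7693 higher. Without tumors 3 and 7, a choice made after the data were seen, 33 members were lower and 11 higher. Over all genes 7329 were then lower and 7418 higher.

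Tumors were also compared by title number. The median absolute log2 difference over 49 members above the 3-read floor was 0.63 to 1.51 in the 4 pairs of tumors that share a number and 0.51 to 2.03 in the 17 pairs that do not, with medians of 1.10 and 1.02. The widest pair was tumors 3 and 7, and the closest was tumors 4 and 6. Without tumor 7 the 2 pairs that share a number differed by 0.63 and 0.97, and the 13 that do not by 0.51 to 1.25. Over all genes, the correlation that limma estimated within same-numbered tumors was 0.304.

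Of 87 tested Wnt pathway genes outside the members, 32 were higher (36.8%) and 26 lower (29.9%), which is close to the 31.4% and 30.1% of all genes tested, and the median log2 fold change was 0.06. Of 19 genes for Wnt secretion, receptor cofactors and the cell surface, 5 were higher (26.3%) and 6 lower (31.6%), near the shares of all genes. Wls, the carrier that Wnt proteins need for secretion, ran from 3114 to 3601 normalized counts in normal lung, against 11.9 to 815 in tumors (log2 fold change -4.39, limma adjusted p = 0.000208), and Lrp4 from 2029 to 5102 and from 78.5 to 701 (-4.23). Tmem132a rose with groups apart (261 to 489 against 656 to 2896, 1.99). The Wnt5a receptor Ror2 rose with overlapping groups (78.5 to 233 against 83.4 to 1160, 1.95). In the cytoplasmic relay 14 of 24 genes were higher (58.3%, against 31.4% of all genes) and 3 lower (12.5%, against 30.1%), with a median of 0.48, and the difference of this list from other genes was not tested. Apc2, a destruction complex gene, rose by 3.94 (120 to 345 against 1072 to 6005) and Frat2 by 2.15, while Nkd2 (-2.59) and Ppp2r5a (-1.38) fell. The remaining lower gene was Ctnnb1, which encodes beta-catenin (2573 to 3406 against 635 to 1712, -1.30, limma adjusted p = 0.000226).

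Of 14 nuclear partners and repressors of beta-catenin, 4 were higher (28.6%, against 31.4% of all genes) and 3 lower (21.4%, against 30.1%). Ctnnbip1, which keeps beta-catenin from TCF factors, rose by 2.71 (242 to 415 normalized counts in normal lung, 1488 to 3432 in tumors), and the corepressor Tle3 by 1.30. Sox17 (-5.33), an endothelial and endodermal factor, and Tle4 (-2.16) fell. Of 15 further genes known as targets of beta-catenin, 4 were higher (26.7%) and 6 lower (40.0%), against 31.4% and 30.1% of all genes. Prox1 rose by 6.55 (60.7 to 197 against 3426 to 17143) and Ephb2 by 5.61 (48.4 to 160 against 2619 to 7008). Bmp4 fell by 6.05 (2096 to 2954 against 3.97 to 125) and the cyclin gene Ccnd1 by 4.65 (2222 to 2396 against 39.3 to 243).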

How the data were processed

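Poly-A RNA from 5 normal lungs and 7 tumors was sequenced as paired reads on an Illumina NovaSeq, per the labels' protocols. The authors deposited 1 table of a normalized read count signal, with 1 column per sample for 30399 Ensembl genes. Reads were counted with featureCounts and scaled with DESeq2 on build GRCm39, per the submitters' processing notes, which give no versions. The aligner and the use of strand are not given in the sources used here. The values themselves show the unit: in each sample 100% of them were whole multiples of the worth of 1 read (tolerance 0.01 reads), from which depth was recovered. In tumor 3 the worth of 1 read is too near 1 for an independent check, so tests on reads used the other 11 samples. Values are scaled to no fixed total and by no gene length. All 12 columns were matched to samples by title, and samples were grouped by the tissue label.

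The foreseen design named edgeR for raw counts and limma for size-factor-scaled values, and the table called for limma. Genes with a mean of at least 1 were tested with limma 3.58.1 (R 4.3.3) on log2(normalized count + 1) with a mean-variance trend, and p-values were adjusted by Benjamini-Hochberg over 23674 genes. Calls use an adjusted p under 0.05. Fold changes on this scale understate the change of low genes and, where a group is near 0, depend on the added 1. The script was tested on simulated data. GENCODE release M21 gave exon lengths and a symbol for 29982 of 30399 identifiers. Levels of different genes were compared per kilobase of merged exons. The promoter table's build differs from the files' build, and its coordinates are used for its own sequences alone. Strand use being unstated, counts are uncertain for 9 members that overlap a listed gene on the opposite strand: Wnt7b, Fzd5, Fzd6, Sfrp2, Rspo1, Rspo3, Lef1, Tcf7 and Notum.

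Alternatives were no filter or a minimum mean of 10, a pseudocount of 0.1, quantile normalization, equal totals, no trend, same-numbered tumors averaged or correlated, no trachea-titled tumors, the level of Y-linked genes as a covariate (balance of the sexes), edgeR 4.0.16 and DESeq2 1.42.0 on the recovered reads, and each sample left out. Leaving out tumors 3 and 7 together was added after the data were seen. Values per sample are printed for members with groups apart, an absolute log2 fold change of at least 2 and a group mean of at least 100, and for 8 feedback targets; the 6 most variable members have a mean of at least 20; from the pathway lists the 2 largest changes in each direction are named. Ranges are given for other members. Of the pathway lists, Ctnnb1 was named in addition. The rule for the members sets no threshold on a measured value, but the members and lists were chosen with earlier results of these data known. The listed markers Tcf21, Itgam, Actc1 and Tubb3 were not analysed here. Other lists covered alveolar type 1 cells (58748 to 110832 summed normalized counts in normal lung, 1220 to 2951 in tumors), airway secretory cells (99910 to 245732, 65.4 to 2247), ciliated cells (4065 to 5400, 781 to 2134), leukocytes other than T cells (6818 to 11984, 256 to 8611) and neurons with Schwann cells (158 to 323, 62.5 to 234). The ciliated cell markers did not move together: Foxj1 and Dnah5 fell, Ccdc39 passed as higher (log2 fold change 0.75) and Rsph1 did not pass. Python 3.11.15, numpy 2.4.6, pandas 2.3.3 and matplotlib 3.10.9 were used.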

Additional observations from a re-analysis of the deposited data

Results flagged for a closer look

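Each member was screened, in the 5 normal lungs and in the 7 tumors separately, for a lowest or highest sample set far from the rest of its group (by the gap to its nearest neighbour relative to the group's range, at Dixon's limit). Of 110 such comparisons, 12 met this. The screen used log2(normalized count + 1). Chance gives about 1 in 20 for normally distributed values. Whether these values are so distributed was not tested, so the share met by chance here can differ. Tumor 7 accounted for 5 of the 12, always as the highest tumor: Fzd7 at 461.8 normalized counts (next tumor 95.02), Dkk3 at 4152 (next 515), Lef1 at 123.6 (next 23.4), Tcf7 at 391.3 (next 118) and Wnt8b at 35.2 (next 5.66). Tumor 2 was set low in Wnt7a at 4.77 (next 24.2), in Lrp5 at 370.5 (next 996) and in Axin2 at 269.2 (next 478). Tumor 1 was set high in Lgr4 at 1756 (next 781), and tumor 3 was at 0 in Wif1 (next 4.85). Among normal lungs, sample 5 was set high in Lgr6 at 536.9 (next 193), and sample 3 alone had Wnt1, at 1.62, which is 1 read.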

How the results depend on the processing

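Counts of members called ranged from 10 to 13 higher and from 25 (edgeR, 11 samples) to 34 lower over 25 alternatives, none beyond 1.5 times the reported counts. Over all genes the counts ranged from 5874 to 8594 higher and from 4821 to 7570 lower. The edgeR fit tested fewer genes, 49 members and 18308 genes in all, of which 4821 were lower and 6384 higher. Of 54 members, 32 (9 higher, 23 lower) kept their direction and their side of the threshold in each alternative that gave a value. The exceptions that passed the test are given with their values in the report. Signs turned in members that did not pass: Wnt6 with the Y-linked covariate (-0.56), Sfrp4 with it (-0.083), Dkk1 without the trachea-titled tumors (0.21) and without tumors 3 and 7 (0.21), Dkk2 with edgeR (0.31) and DESeq2 (0.25), and Znrf3 with equal totals (0.065), with the Y-linked covariate (0.21) and without tumors 3 and 7 (0.030). Leaving out single samples, Dkk1 ranged from -0.34 to 0.086, Dkk2 from -0.53 to 0.019, Sfrp4 from -0.060 to 0.54 and Znrf3 from -0.25 to 0.0011. The cause of these turns was not tested. Scaling to equal totals moved the median log2 fold change of all genes from 0.04 to 0.23, and that of the members from -1.57 to -1.38; with edgeR and DESeq2, which tested other numbers of genes, the medians of all genes were 0.14 and 0.18. No paired analysis was possible because the titles of the groups share no number; correlating tumors with the same number is among the alternatives. Depth limits Wnt1, Wnt8b, Wnt10a and Dkk1 in both groups, Wnt3a, Rspo2 and Notum in tumors, and Wnt3, Wnt16 and Fzd9 in normal lung, where at least 3 samples of the group hold 3 reads or fewer and the size of a fold change is uncertain.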

Other observations

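Genes of the planar cell polarity branch, through which some Wnt ligands act without beta-catenin, changed in both directions: of 15 tested, 5 were higher (33.3%) and 8 lower (53.3%) in tumors (limma, Benjamini-Hochberg adjusted p under 0.05), against 31.4% and 30.1% of all genes tested, with a median log2 fold change of -0.84. Celsr3, an atypical cadherin known from axon tracts, spanned 45.1 to 72.2 normalized counts in normal lung against 3881 to 11100 in tumors, a rise of 7.002 on the log2 scale (SE 0.24). Its relative Celsr2 rose by 2.78 (SE 0.29), with 241 to 801 normalized counts in normal lung against 1661 to 4105 in tumors. Prickle1, a cytoplasmic polarity protein, fell by 3.03 (SE 0.66), with 4404 to 6592 normalized counts in normal lung and 50.6 to 1392 in tumors. Daam2, a formin that binds dishevelled, fell by 2.39 (SE 0.42), with 647 to 1423 and 80.9 to 537. In each of these 4 genes the groups did not overlap.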
